A study of Mus musculus with 6 samples.

Results

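The enzymes described here remove superoxide and hydrogen peroxide, and they were examined at the level of mRNA in mouse hearts that had lost Mrps5. The members were fixed by name as the rows of the deposited expression table for Sod1, Sod2, Sod3, Cat, Gpx1, Gpx3, Gpx4, Prdx3, Prdx5 and Txn2, so that 10 of the 54532 genes in the table are members. The name of the group was not at odds with the table, since all 10 genes were found and all 10 were expressed, between 14.3 and 421 FPKM in any heart. FPKM divides the fragments of a gene by its length and by the size of the library.

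Superoxide is released as a by-product of electron transport and is converted to hydrogen peroxide by superoxide dismutases, of which SOD2 is the manganese enzyme of the mitochondrial matrix, SOD1 the copper and zinc enzyme of the cytosol and the intermembrane space, and SOD3 a secreted enzyme of the matrix around cells. Hydrogen peroxide is then reduced by peroxiredoxins, whose thiols are recharged by thioredoxin, and by glutathione peroxidases, or is split by catalase in peroxisomes. Of the glutathione peroxidases, GPX1, GPX3 and GPX4 use glutathione and contain selenium. Cardiomyocytes are dense in mitochondria, and in the mitochondria of the heart the pair of peroxiredoxin PRDX3 and thioredoxin TXN2 is a main path for hydrogen peroxide.

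The study compared 3 hearts of conditional knockout mice (cKO) with 3 control hearts (Ctrl) by RNA sequencing of poly-A RNA. Ctrl mice carried Mrps5 alleles flanked by loxP sites (Mrps5 fl/fl), and cKO mice carried the same alleles together with MCM, a transgene in which the cardiac alpha myosin heavy chain promoter drives MerCreMer, a Cre recombinase that acts in cardiomyocytes once tamoxifen is given. All mice of both groups received tamoxifen at 45 mg/kg/day for 5 days, per the labels from 8 weeks of age, and hearts were taken 12 weeks later, whereas the methods of the study describe tissue of ventricles from littermates of 12 weeks of age. MRPS5 belongs to the small subunit of the ribosome of mitochondria, which translates the subunits of the respiratory chain that mitochondrial DNA encodes. Since MCM was carried only by cKO mice, the effects of Cre and of the loss of Mrps5 cannot be told apart, and in bulk tissue fewer cells of a type and less RNA per cell cannot be told apart.

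Mrps5 itself checked the labels, at 5.99 ± 0.690 FPKM in Ctrl and 1.22 ± 0.0947 in cKO (SD, n = 3), 20.4% of Ctrl. The depth recovered from the table lay between 15989322 and 24875499 reads per heart, and every member had at least 1110 reads in each. The library size by which FPKM divides was 0.913 to 0.980 times these reads in Ctrl hearts and 1.06 times in cKO hearts. Compared with division by the recovered reads, this raises Ctrl values and lowers cKO values. Scaling to the total of all recovered reads was not tried. Of 10 cardiomyocyte markers 6 were lower in cKO and 0 higher (0 also at an unadjusted p under 0.05 and 0 by voom), their summed level was 17869 to 21837 FPKM in Ctrl and 10282 to 17283 FPKM in cKO, and none was at 0. The methods of the study describe male mice only, but cKO replicate 2 had Xist at 10.7 FPKM and no read of Ddx3y, whereas the other hearts had Ddx3y at 12.7 to 17.7 FPKM. The atrial marker Myl7 ranged from 18.1 to 679 FPKM, with the highest values in Ctrl replicate 1 and cKO replicate 3.

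Across all genes, 12944 genes averaged 0.5 FPKM or more over the 6 hearts and were tested, and 4315 passed an adjusted p of 0.05 (33.3%), of which 2110 were higher in cKO (16.3%) and 2205 lower (17.0%), and the median log2 fold change was -0.02. The test was limma on log2(FPKM + 1), two-sided, and p-values were adjusted by the Benjamini-Hochberg method across the whole set of tested genes. The higher calls made up 48.9% of all calls, but 62.8% when values were scaled to the total without mtDNA-encoded genes. Against this background, 2 of the 10 members were lower in cKO, Sod2 and Prdx5, and 0 were higher (0 also at an unadjusted p under 0.05 and 0 by voom on the recovered reads). The median log2 fold change of the 10 members was -0.06, and the largest distance from 0 among the 8 members that did not pass was 0.14. The values of the groups did not overlap for 2 of the 10 members, beside 51.2% of all genes tested. Both counts were near or under the background and are no result about the members as a group.

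**Figure D1:**
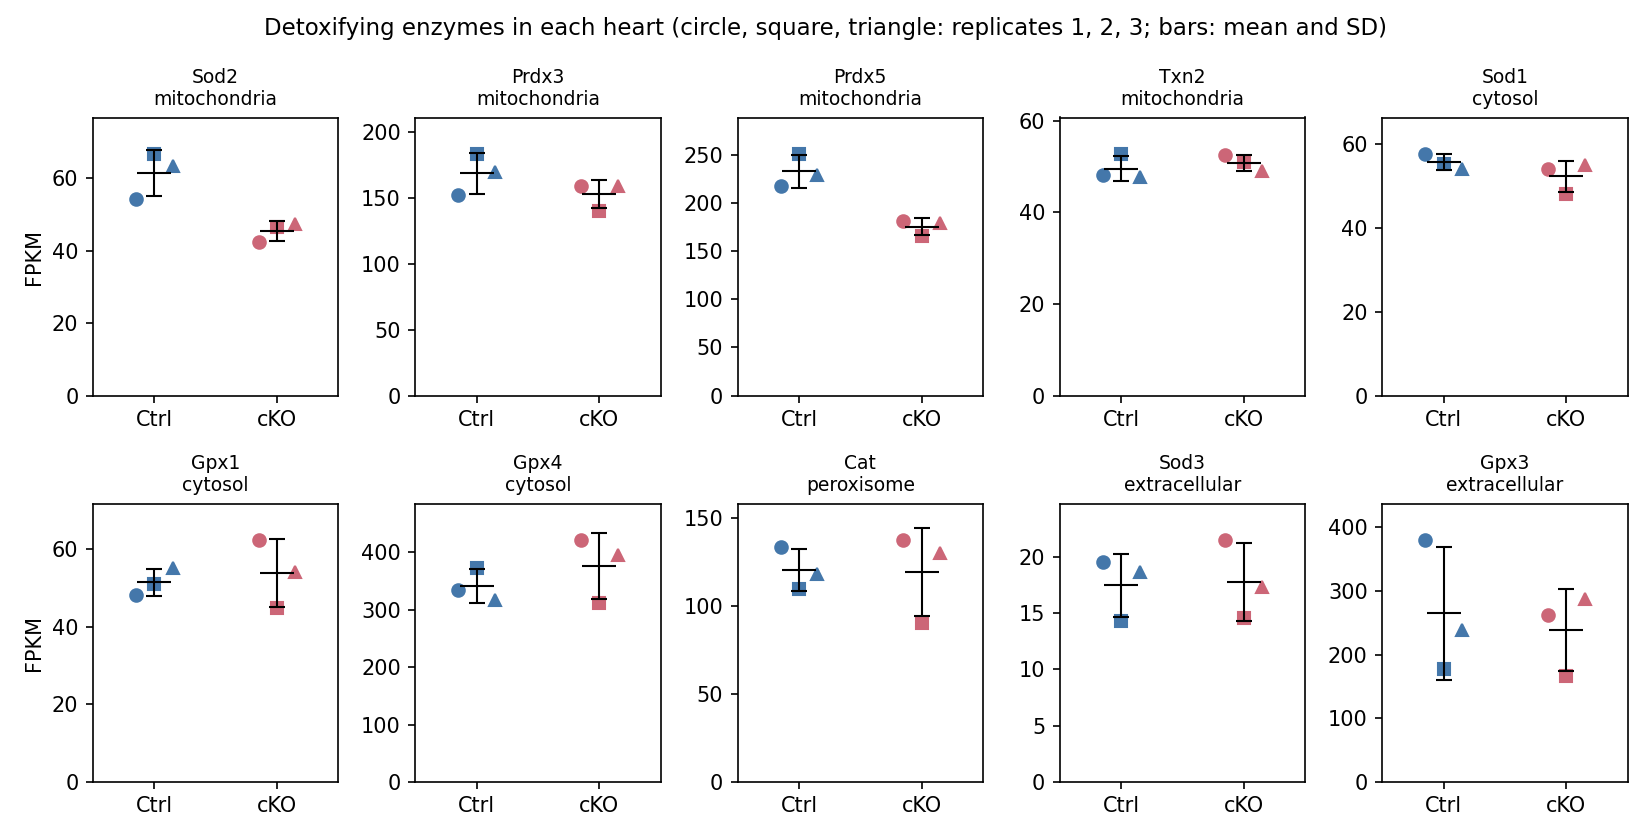
Level of each of the 10 enzymes in FPKM (y axis, from 0) in each Ctrl and cKO heart, with a symbol for each replicate and bars for the mean and SD of 3 hearts. Sod2 and Prdx5 are the panels in which all cKO hearts lie below all Ctrl hearts.

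Sod2 (chr17:13006846-13040063, plus strand, GRCm38, as are all coordinates here) gave the largest fall among the mitochondrial enzymes. In Ctrl it stood at 54.4 FPKM in replicate 1, 66.8 in replicate 2 and 63.3 in replicate 3, and in cKO, in the same order, at 42.4, 46.7 and 47.5 FPKM. All values per heart are given in this order of replicates. Every cKO heart lay below every Ctrl heart, with a gap between the lowest Ctrl and the highest cKO value. The mean fell from 61.5 ± 6.38 to 45.5 ± 2.72 FPKM (SD, n = 3), 74.0% of Ctrl, and the log2 fold change was -0.42 (SE 0.0977, 95% interval -0.65 to -0.19, adjusted p = 0.0171). The call was lost when Ctrl replicate 2 (adjusted p = 0.0581), Ctrl replicate 3 (0.0617) or cKO replicate 1 (0.0505) was left out, with log2 fold changes of -0.36, -0.40 and -0.37. Without cKO replicate 2 the log2 fold change was -0.44 and the call was kept (adjusted p = 0.0307).

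Prdx5 (chr19:6906697-6910106, minus strand) encodes a peroxiredoxin that resides in mitochondria and also in peroxisomes and the cytosol. Its levels were 218, 251 and 229 FPKM in the Ctrl hearts and 181, 166 and 179 FPKM in the cKO hearts. Here too all cKO values were below all Ctrl values. The mean fell from 233 ± 16.9 to 175 ± 8.56 FPKM, 75.4% of Ctrl (log2 fold change -0.40, SE 0.0849, 95% interval -0.60 to -0.20, adjusted p = 0.0124). This call was kept whichever 1 heart was left out, with adjusted p between 0.0242 and 0.0428, and of all alternatives only the removal of both Ctrl replicate 1 and cKO replicate 3 ended it (log2 fold change -0.47, adjusted p = 0.0632). By gene bounds, introns included, the gene shares 409 bases with Trmt112 on the other strand. Trmt112 was at 12.1 ± 0.849 FPKM in Ctrl and 15.3 ± 2.35 in cKO. Whether reads were counted by strand is not given in the sources used here.

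Prdx3 and Txn2, the peroxiredoxin and the thioredoxin that are found in mitochondria only, did not pass the test. Prdx3 (chr19:60864051-60874556, minus strand) was at 152, 183 and 169 FPKM in Ctrl and 159, 140 and 159 FPKM in cKO. The ranges overlapped, and the log2 fold change was -0.14 (95% interval -0.37 to 0.09, adjusted p = 0.312). Txn2 (chr15:77915047-77929006, minus strand), which recharges PRDX3, was at 48.2, 52.8 and 47.8 FPKM in Ctrl and 52.5, 51.0 and 49.0 FPKM in cKO. It had the narrowest spread of the 10 members, the highest heart being 1.11 times the lowest, and its interval on the log2 scale, -0.14 to 0.21, excluded a fall of the size estimated for Sod2 or Prdx5 (log2 fold change 0.04, adjusted p = 0.734).

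Ratios within a heart set these enzymes against each other without regard to the size of the library. Prdx5 over Prdx3 was 1.43, 1.37 and 1.35 in the Ctrl hearts and 1.14, 1.18 and 1.13 in the cKO hearts, so that the groups did not overlap. Sod2 over Txn2 likewise went from 1.13, 1.26 and 1.33 in Ctrl to 0.808, 0.915 and 0.968 in cKO without overlap. Sod2 over Sod1, the mitochondrial against the cytosolic dismutase, was 0.945, 1.21 and 1.18 in Ctrl and 0.786, 0.971 and 0.866 in cKO. In that ratio Ctrl replicate 1 lay below cKO replicate 2, so the groups overlapped. Prdx3 over Txn2 was 3.16, 3.47 and 3.55 in Ctrl and 3.02, 2.74 and 3.24 in cKO, with overlap. Gpx4 over Gpx1, at 6.94, 7.33 and 5.75 in Ctrl and 6.77, 6.98 and 7.29 in cKO, overlapped as well. Both ratios without overlap set a called gene over one not called, so they add no separate support. The share of other gene pairs without overlap was not computed. For single values of this kind an exact permutation test of 3 against 3 hearts cannot give a p below 0.1.

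The promoters of the 4 mitochondrial enzymes are shown because 2 of the 4 were called lower and 2 were not called, so that their letters can be read side by side. The sequences are the RefSeq entries of build GRCm38.p6, 250 bases before to 50 after the start that RefSeq gives the gene, 5′ to 3′ on the strand of the gene, and 9 of the 10 members had an entry, all but Sod3. Capitals mark the GC box (GGGCGG) and the CCAAT box (CCAAT) on either strand.
Sod2 promoter, chr17:13007589-13007888, plus strand: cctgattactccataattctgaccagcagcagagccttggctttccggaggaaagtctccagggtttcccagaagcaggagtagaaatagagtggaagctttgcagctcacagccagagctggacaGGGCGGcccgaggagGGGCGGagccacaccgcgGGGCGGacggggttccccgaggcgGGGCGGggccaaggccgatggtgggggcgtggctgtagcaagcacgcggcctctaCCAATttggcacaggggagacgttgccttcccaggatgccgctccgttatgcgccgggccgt
Prdx5 promoter, chr19:6910057-6910356, minus strand: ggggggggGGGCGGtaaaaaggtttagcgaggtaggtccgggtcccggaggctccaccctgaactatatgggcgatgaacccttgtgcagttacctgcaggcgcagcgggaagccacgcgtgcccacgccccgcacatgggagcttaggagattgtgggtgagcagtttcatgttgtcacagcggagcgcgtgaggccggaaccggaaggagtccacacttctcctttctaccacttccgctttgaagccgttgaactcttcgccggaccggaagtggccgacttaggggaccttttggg
Prdx3 promoter, chr19:60874489-60874788, minus strand: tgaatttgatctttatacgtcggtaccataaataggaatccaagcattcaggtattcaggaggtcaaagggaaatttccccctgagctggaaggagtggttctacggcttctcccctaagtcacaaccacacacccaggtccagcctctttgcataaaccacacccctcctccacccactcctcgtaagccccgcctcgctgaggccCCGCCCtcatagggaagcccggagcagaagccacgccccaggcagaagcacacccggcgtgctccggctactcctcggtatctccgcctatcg
Txn2 promoter, chr15:77928945-77929244, minus strand: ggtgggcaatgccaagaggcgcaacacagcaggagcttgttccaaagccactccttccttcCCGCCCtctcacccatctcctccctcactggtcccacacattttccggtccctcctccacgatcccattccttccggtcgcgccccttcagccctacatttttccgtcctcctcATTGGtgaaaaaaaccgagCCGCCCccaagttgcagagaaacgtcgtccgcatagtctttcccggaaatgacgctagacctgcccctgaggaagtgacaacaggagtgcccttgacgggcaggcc
The Sod2 entry held 4 GC boxes, with first bases at -124, -109, -91 and -67 from the RefSeq start, and a CCAAT box at -12. That start, at 13007839, lies 993 bases inside the gene as the table bounds it, so that the whole Sod2 entry lies within those bounds, while the starts of Prdx5, Prdx3 and Txn2 were 0, 18 and 12 bases inside theirs. The Prdx5 entry held 1 GC box, far from the start at -242, and no CCAAT box. Of the enzymes that were not called, Prdx3 had 1 GC box at -43, and Txn2 had 2 GC boxes, at -189 and -56, and a CCAAT box at -75. Thus neither box separated the pair called lower from the pair that was not called, and a missed threshold does not show that a gene was unchanged. Of all 32851 entries of this length, 35.7% held a GC box and 37.4% a CCAAT box, searched on both strands. The core of the antioxidant response element, TGACNNNGC, stood in 12.4% of all entries, among the members in that of Sod1 alone (at -56), and outside the members in those of Srxn1 (at 29) and of 1 of the 3 Txnrd1 entries (at -92). The forkhead motif TGTTTAC (3.65% of all entries) and the cAMP response motif TGACGTCA (1.79%) were in no member's entry, which says only that these letters are not in the window.

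In the cytosol and the peroxisome no member passed the test. Sod1 (chr16:90220754-90226329) was at 57.6, 55.2 and 53.9 FPKM in Ctrl and 54.0, 48.0 and 54.8 FPKM in cKO, with overlapping ranges (log2 fold change -0.09, 95% interval -0.27 to 0.10, adjusted p = 0.427). By gene bounds it shares 650 bases with Scaf4 on the other strand. Cat (chr2:103453849-103485160), which encodes the catalase of peroxisomes, was at 134, 110 and 118 FPKM in Ctrl and 137, 90.6 and 130 FPKM in cKO. The cKO hearts thus held both the highest and the lowest value (log2 fold change -0.03, 95% interval -0.43 to 0.36, adjusted p = 0.899).

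The cytosolic glutathione peroxidases, both of which are also found in mitochondria, had the same order of cKO hearts as Cat. Gpx1 (chr9:108338903-108340343) was at 48.2, 50.8 and 55.0 FPKM in Ctrl and 62.3, 44.8 and 54.2 FPKM in cKO (log2 fold change 0.05, 95% interval -0.25 to 0.35, adjusted p = 0.772). Gpx4 (chr10:80047166-80056439), which reduces lipid peroxides in membranes, was at 335, 373 and 316 FPKM in Ctrl and 421, 312 and 395 FPKM in cKO. The highest 2 values were in cKO, but so was the lowest, and the log2 fold change of 0.13 had an interval of -0.18 to 0.44 (adjusted p = 0.472). A processed copy, Gpx4-ps2, was listed at 118 ± 7.06 FPKM in Ctrl and 123 ± 19.1 in cKO, with 0.148 to 0.163 times the reads of Gpx4, so that reads may be split between the copies. With the reads of both summed, the log2 fold change of Gpx4 was 0.12 (adjusted p = 0.515).

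The secreted enzymes varied more within groups than between them. Sod3 (chr5:52363791-52371418) was the lowest member, at 19.6, 14.3 and 18.6 FPKM in Ctrl and 21.5, 14.6 and 17.3 FPKM in cKO, with a log2 fold change of 0.02 (95% interval -0.37 to 0.41, adjusted p = 0.935). Gpx3 (chr11:54902453-54910377), the glutathione peroxidase of plasma, was at 380, 177 and 238 FPKM in Ctrl and 262, 166 and 287 FPKM in cKO. Its highest heart was 2.29 times its lowest, the widest spread of the 10 members, and its log2 fold change of -0.12 had an interval of -0.86 to 0.62 (adjusted p = 0.798). In each group the heart highest in Gpx3 was also the heart highest in Myl7, and the part of atrial tissue in these values was not tested.

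**Figure D2:**
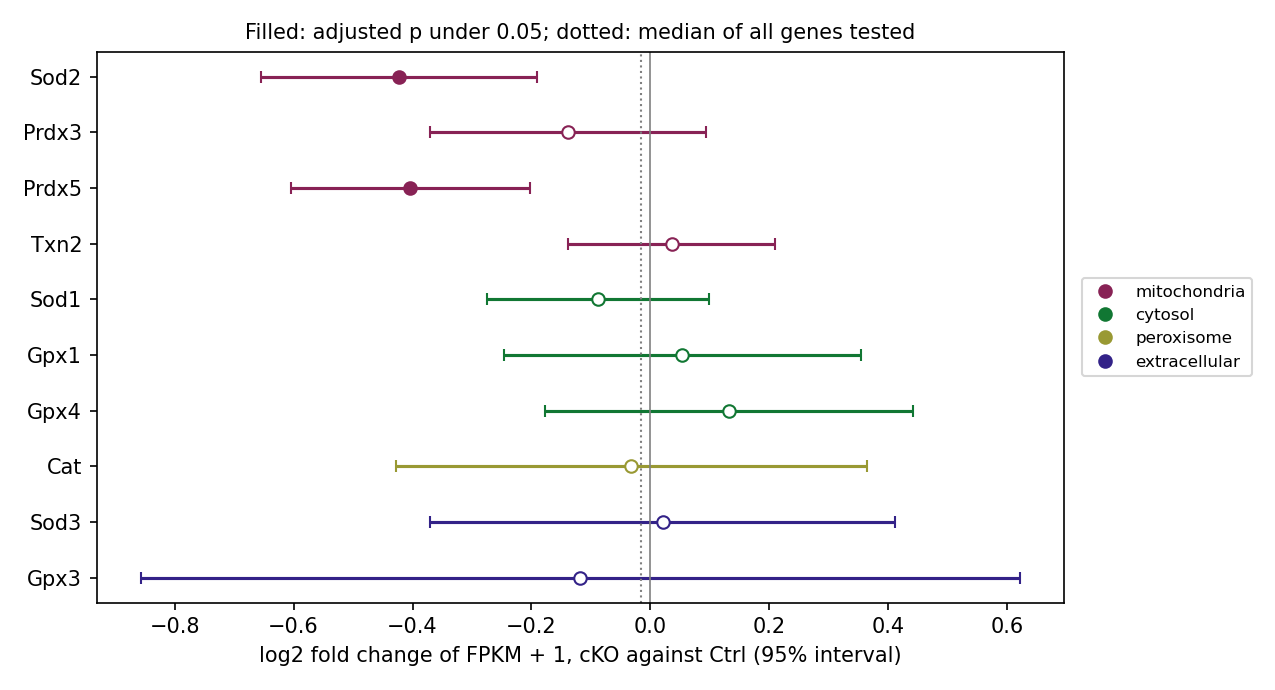
Log2 fold change of FPKM + 1, cKO against Ctrl (x axis), with the 95% interval of limma for each enzyme (y axis), coloured by compartment; filled points passed an adjusted p of 0.05. Sod2 at -0.42 and Prdx5 at -0.40 are the filled points, and the interval of Gpx3 is the widest.

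By compartment, 2 of 4 mitochondrial enzymes were lower in cKO, with a median log2 fold change of -0.27, and 0 of the 4 enzymes of cytosol and peroxisome passed in either direction, with a median of 0.01. The median of the 2 secreted enzymes was -0.05. The mean log2(FPKM + 1) of the mitochondrial enzymes minus that of the cytosolic and peroxisomal enzymes was -0.13, 0.12 and 0.02 in the Ctrl hearts and -0.40, -0.04 and -0.30 in the cKO hearts. Ctrl replicate 1 lay below cKO replicate 2, so that the groups overlapped, and a difference between compartments was not shown. The sites overlap as well, since Prdx5, Gpx1, Gpx4 and Sod1 each have a second site.

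A single heart carried much of the spread within cKO. cKO replicate 2, the heart that stood apart in Xist and Ddx3y, was the lowest cKO heart for 8 of the 10 members, all but Sod2 and Txn2, as against 40.4% of all genes tested. Without it the log2 fold changes were 0.15 for Cat (adjusted p = 0.300), 0.18 for Gpx1 (0.216), 0.26 for Gpx4 (0.0989) and 0.12 for Gpx3 (0.780). None of these passed the test, but those of Cat and Gpx3 changed sign and those of Gpx1 and Gpx4 grew. Prdx5 kept its call without this heart (log2 fold change -0.36, adjusted p = 0.0284).

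The order of the levels depended on the length by which reads were divided. The table divides by the length of all exons of a gene joined, and for Sod1 that was 3970 bases against 641 bases for its principal transcript in GENCODE, a ratio of 6.19. Per gene length Sod1 was at 55.5 ± 1.89 FPKM in Ctrl, rank 7 of the 10 members, but per length of the principal transcript it was at 344 ± 11.7 FPKM, rank 3. Sod2, with 10008 against 5861 bases, went from 61.5 to 105 FPKM and from rank 6 to rank 7. Hence by the table's own values the Ctrl mean of Sod2 exceeded that of Sod1, and by transcript length Sod1 had the higher value in every heart. Values per transcript length assign all reads of a gene to its principal transcript, which was not tested. GENCODE also lists a Sod1 transcript of 3970 bases with a retained intron, and any reads from it would raise the value of Sod1.

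Per transcript length, the Ctrl order ran from Gpx4 (614 ± 51.8 FPKM) over Prdx5 (394 ± 28.6), Sod1, Gpx3 (302 ± 119), Prdx3 (168 ± 15.5), Cat (120 ± 12.0), Sod2 (105 ± 10.9), Txn2 (102 ± 5.74) and Gpx1 (69.0 ± 4.63) to Sod3 (17.5 ± 2.82). The ranges of 3 Ctrl hearts overlapped between the neighbours Sod1 and Gpx3, Cat and Sod2, and Sod2 and Txn2, and for no other pair of neighbours. Gpx4 was first and Sod3 last by either length. In cKO, Sod2 was at 72.4 to 81.1 FPKM per transcript length and Txn2 at 101 to 108 FPKM. By these lengths, the pair that overlapped in Ctrl was apart. Txn2 has principal transcripts of 2049 and 1298 bases that rank alike, and the longer was used. By the shorter, every Txn2 value would be higher. Its place in the order and its overlap with Sod2 thus rest on this choice. The choice of length does not touch the fold changes of a gene beyond the constant of 1 that was added.

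**Figure D3:**
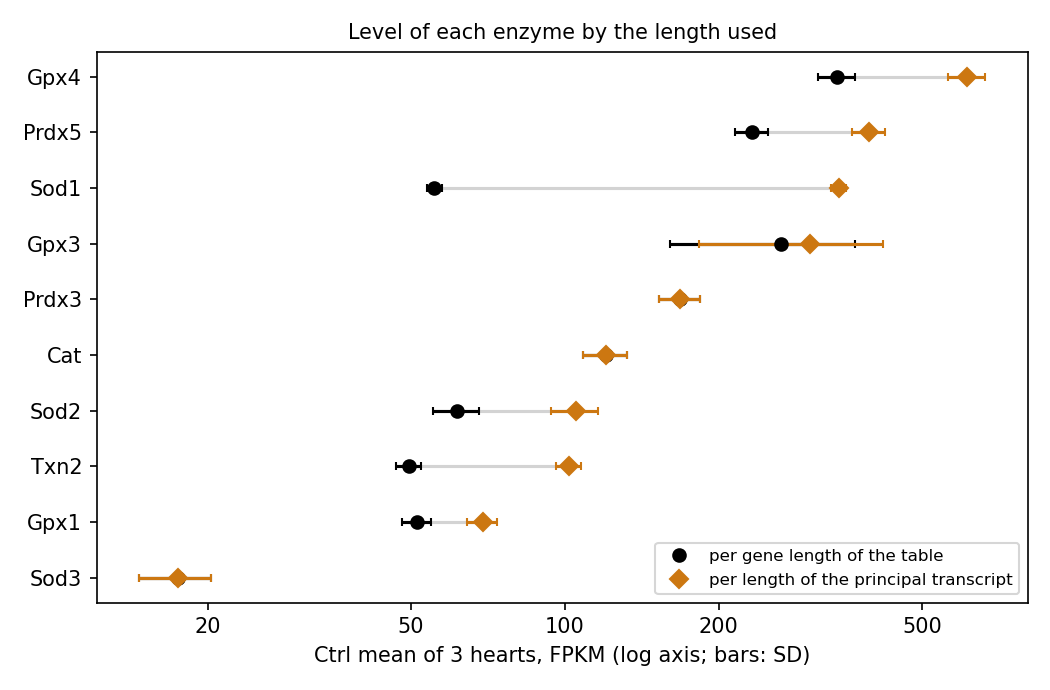
Ctrl mean of each enzyme in FPKM (x axis, log scale; bars are the SD of 3 hearts) per gene length of the table (circles) and per length of the principal transcript (diamonds). Sod1 moves furthest, from 55.5 to 344 FPKM, while Gpx4 is first and Sod3 last by either length.

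The enzymes that recharge, supply and accompany the 10 members were read from 9 further lists of 123 genes, of which 106 were tested. Together 25 were higher (23.6%) and 21 lower (19.8%), beside 16.3% and 17.0% of all genes tested. The counts of each list below are small and are to be read beside the same shares of all genes. The median log2 fold change of the 106 genes was 0.02, beside -0.02 for all genes. Of these 46 calls, 21 were kept under every alternative tried, 12 of them higher and 9 lower, 18 were lost when some single heart was left out, and the other 7 were lost only without the 2 hearts highest in Myl7. Among the other peroxiredoxins and glutathione peroxidases 1 of 6 tested was higher and 1 lower. Gpx8, an enzyme of the endoplasmic reticulum, rose from 18.5, 17.1 and 17.6 FPKM to 30.2, 30.1 and 24.8 FPKM (log2 fold change 0.64, SE 0.0945, adjusted p = 0.00369). Prdx2, a cytosolic peroxiredoxin, fell from 117, 131 and 126 FPKM to 94.7, 96.5 and 104 FPKM (-0.34, adjusted p = 0.0176), though the call was lost without Ctrl replicate 2, Ctrl replicate 3 or cKO replicate 1 (adjusted p = 0.0609, 0.0634 and 0.0506). The log2 fold changes of Prdx1 (-0.01), Prdx4 (0.02) and Prdx6 (0.04) did not pass (adjusted p = 0.964, 0.854 and 0.795), and Gpx2 and Gpx5 were listed at 0 in all 6 hearts.

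The thioredoxin and glutathione systems, which return electrons to the peroxidases, gave 7 higher and 1 lower of 19 tested, with a median log2 fold change of 0.28. Srxn1, the sulfiredoxin that repairs overoxidised peroxiredoxins, was at 11.7, 9.53 and 11.1 FPKM in Ctrl and 40.3, 32.3 and 31.0 FPKM in cKO. All cKO hearts were above all Ctrl hearts, with means 3.20-fold apart (log2 fold change 1.59, SE 0.123, adjusted p = 0.000618). Txnrd1, the cytosolic thioredoxin reductase and a selenoprotein, rose from 13.3, 12.7 and 11.9 FPKM to 36.3, 22.3 and 27.3 FPKM (1.10, SE 0.164, adjusted p = 0.00385). Its mitochondrial counterpart Txnrd2, which serves Txn2, was at 6.83, 8.13 and 6.94 FPKM and 10.4, 7.81 and 9.13 FPKM and did not pass (0.28, adjusted p = 0.103). The cytosolic thioredoxin Txn1 (0.21, adjusted p = 0.204) and the mitochondrial glutaredoxin Glrx2 (0.15, adjusted p = 0.174) did not pass either. Without cKO replicate 2, however, Txn1 (0.33, adjusted p = 0.0249) and Txnrd2 (0.38, adjusted p = 0.0386) passed, and Txnrd2 also did when values were scaled without mtDNA-encoded genes (0.37, adjusted p = 0.0494).

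On the glutathione side, Gss, glutathione synthase, was at 2.23, 2.62 and 2.22 FPKM in Ctrl and 7.93, 4.93 and 6.61 FPKM in cKO (1.14, SE 0.151, adjusted p = 0.00279). Slc25a39, the carrier that brings glutathione into mitochondria, rose from 46.9, 48.6 and 46.2 FPKM to 121, 86.9 and 108 FPKM (1.13, SE 0.123, adjusted p = 0.00162). Gsr, glutathione reductase, rose from 10.5, 10.2 and 8.63 FPKM to 17.4, 13.3 and 13.9 FPKM (0.56, adjusted p = 0.0136), a call that was lost without the 2 hearts highest in Myl7 (0.65, adjusted p = 0.0613). The groups did not overlap in any of these. Gclc (0.30, adjusted p = 0.0635) and Gclm (0.42, adjusted p = 0.103), also of glutathione synthesis, did not pass. By gene bounds, Gss overlaps Acss2 on the other strand over 22544 bases, and Txnrd1 overlaps Gm38560 over 13276 bases. The joined exons of these genes are shorter, at 5915 bases for Gss and 7086 for Txnrd1. All overlaps between genes given here are by bounds, and how many counted bases are shared was not determined. Prdx2, Txnrd2, Gsr, Slc25a3, Selenop and Pex13 overlap other tested genes over 144 to 469 bases. Of the sestrins, Sesn2 rose (1.39, adjusted p = 0.0282) and Sesn1 fell (-0.95, adjusted p = 0.0270), but in leaving out single hearts 5 hearts ended the call of Sesn2 (adjusted p up to 0.0812) and 3 that of Sesn1 (up to 0.0872).

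**Figure D4:**
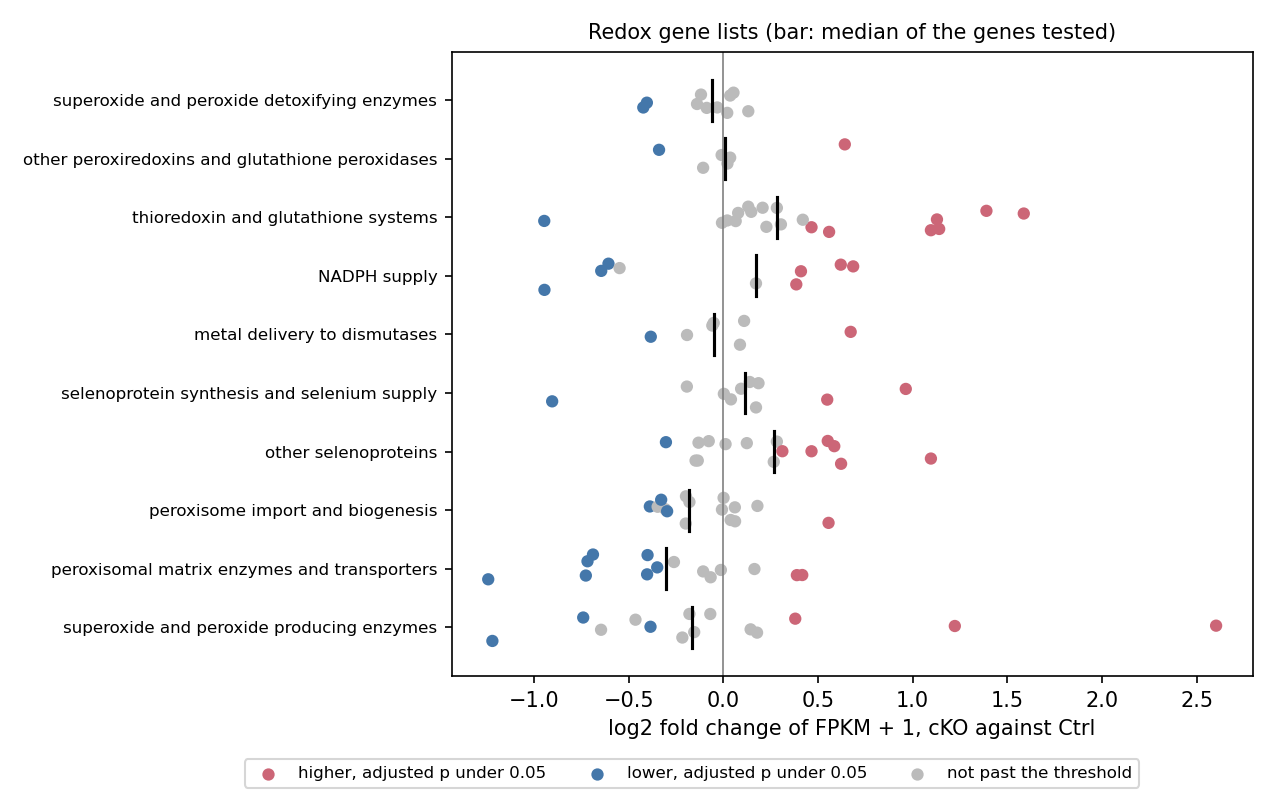
Log2 fold change of FPKM + 1, cKO against Ctrl (x axis), of each gene tested in the 10 detoxifying enzymes and the 9 further lists (y axis; the vertical offset within a list carries no value), with a bar at each median. The detoxifying enzymes lie between -0.42 and 0.13, and the thioredoxin and glutathione list reaches 1.59.

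NADPH, the electron source of both systems, is supplied by different enzymes in mitochondria and cytosol. Of 9 genes of this list tested, 4 were higher and 3 lower. Idh2, the NADP-dependent isocitrate dehydrogenase of mitochondria, fell from 719, 910 and 758 FPKM to 368, 401 and 469 FPKM, 51.9% of Ctrl (log2 fold change -0.94, SE 0.130, adjusted p = 0.00306). The other mitochondrial suppliers that fell were Me3, a malic enzyme (-0.64, adjusted p = 0.00892), and Nadk2, the mitochondrial NAD kinase (-0.61, adjusted p = 0.0121). Without the 2 hearts highest in Myl7 neither passed (adjusted p = 0.0520 and 0.0763). The genes that rose act in the cytosol: G6pdx went from 2.61, 2.33 and 2.81 FPKM to 6.10, 4.46 and 3.90 FPKM (0.69, adjusted p = 0.0118), beside Pgls (0.41), Nadk (0.39) and Pgd (0.62). Not all cytosolic suppliers were higher, since Idh1, the cytosolic isocitrate dehydrogenase, was at 27.5, 30.9 and 26.0 FPKM in Ctrl and 23.3, 13.9 and 20.6 FPKM in cKO, without overlap (log2 fold change -0.55, adjusted p = 0.0550). By gene bounds, G6pdx overlaps Ikbkg on the other strand over 19712 bases, and Idh2 overlaps Gm45203 on the same strand over 1831 bases. Pgls lost its call without the 2 hearts highest in Myl7 (adjusted p = 0.0626), Pgd on leaving out any of 5 hearts (adjusted p up to 0.112) and Nadk any of 3 (up to 0.0757). Nnt, the transhydrogenase of the inner mitochondrial membrane, was near 0 in both groups, with 33 to 57 reads in Ctrl hearts and 8 to 27 reads in cKO hearts (0.246 to 0.389 and 0.0672 to 0.153 FPKM), and was below the minimum for the test. The gene symbol stands on 2 rows of the table, of which the other was at 0 throughout.

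Between the groups, Idh2, Sod2 and Prdx5 fell, as did the cardiomyocyte markers described above, whose median log2 fold change was -0.60. Within cKO the markers had no common order of hearts. Myh6 was at 1692, 3348 and 2349 FPKM, highest in replicate 2. Ryr2 was at 36.9, 33.2 and 43.5 FPKM, lowest in that heart, as was Prdx5. Idh2 and Sod2 were lowest in replicate 1. The part of these markers in those values was not tested. Of the other marker lists, 3 of 10 fibroblast genes were higher and 1 lower, 1 of 8 macrophage genes was higher and 1 lower, 3 of 7 endothelial genes were lower, and 1 of 5 smooth muscle genes was higher and 2 lower. No gene passed among 5 erythroid and 5 atrial markers (0 also at an unadjusted p under 0.05 and 0 by voom).

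**Figure D5:**
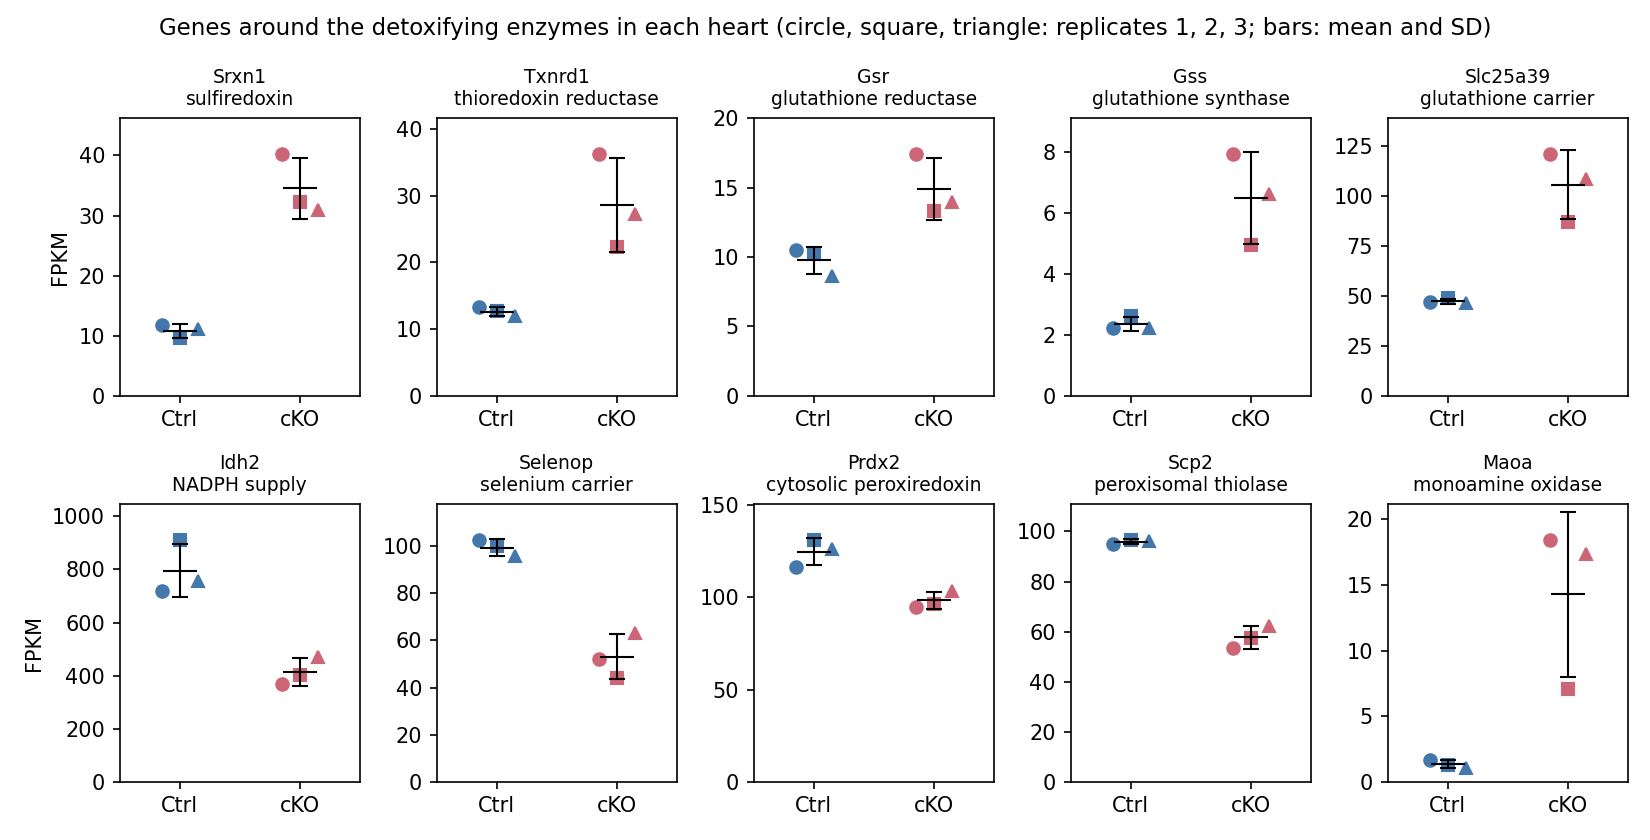
Level in FPKM (y axis, from 0) of 10 genes around the detoxifying enzymes in each Ctrl and cKO heart, with a symbol for each replicate and bars for the mean and SD of 3 hearts. Srxn1, Txnrd1, Gsr, Gss, Slc25a39 and Maoa are higher in all cKO hearts, and Idh2, Selenop, Prdx2 and Scp2 lower in all cKO hearts.

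Metals for the dismutases and selenium for the glutathione peroxidases among the members are delivered by separate sets of proteins. Of 7 metal genes tested, Slc39a14, an importer of zinc, iron and manganese, was higher (0.67, adjusted p = 0.0183), and Slc25a3, the mitochondrial carrier of phosphate and copper, was lower (-0.38, adjusted p = 0.0239). Leaving out single hearts ended the call of Slc39a14 for 2 hearts (adjusted p up to 0.0635) and that of Slc25a3 for 4 (up to 0.0842). Ccs, the copper chaperone of Sod1, was at 17.6, 20.2 and 22.7 FPKM in Ctrl and 22.5, 17.1 and 18.4 FPKM in cKO (-0.06, adjusted p = 0.760). Of 10 genes of selenium supply and selenoprotein synthesis, Selenop, the secreted carrier of selenium, fell from 103, 99.9 and 95.6 FPKM to 52.3, 44.2 and 63.0 FPKM (-0.90, SE 0.129, adjusted p = 0.00333). Lrp8, a receptor for that carrier, rose from 0.229, 0.119 and 0.110 FPKM to 1.51, 1.44 and 0.851 FPKM (0.96, adjusted p = 0.00315), where the constant of 1 makes the log2 fold change smaller than the 8.29-fold ratio of the means. Eefsec, the elongation factor for selenocysteine, was higher (0.55, adjusted p = 0.0217) but lost the call without Ctrl replicate 1 or Ctrl replicate 2 (adjusted p = 0.0534 and 0.0741).

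Gpx1, Gpx3 and Gpx4 are themselves selenoproteins, and none of the 3 passed the test. Of 15 genes listed as other selenoproteins 6 were higher and 1 lower, with a median log2 fold change of 0.27. The list does not hold Selenop and Sephs2, which are also selenoproteins and were counted with selenium supply. Of these, Selenop fell (-0.90, adjusted p = 0.00333), and Sephs2 did not pass (0.09, adjusted p = 0.541). Selenow, an abundant small selenoprotein of muscle, rose from 307, 294 and 281 FPKM to 475, 443 and 441 FPKM (0.62, SE 0.0771, adjusted p = 0.00235). Selenom, of the endoplasmic reticulum, rose from 20.6, 17.6 and 18.1 FPKM to 32.0, 26.5 and 27.6 FPKM (0.59, adjusted p = 0.00591). The deiodinase Dio2 (0.55, adjusted p = 0.00930), Txnrd1, Txnrd3 (0.47, adjusted p = 0.00951) and Selenof (0.31, adjusted p = 0.0254) made up the rest of the 6. Selenok was the one of the 15 listed that fell (-0.30, adjusted p = 0.0260). The calls of Selenof and Selenok were each lost on leaving out any of 5 hearts (adjusted p up to 0.0870 and 0.0847), that of Selenok also under the replicate block (0.0605) and when scaled without mtDNA-encoded genes (0.0928), and those of Dio2 and Txnrd3 without the 2 hearts highest in Myl7 (0.0812 and 0.0521).

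Catalase is imported into peroxisomes, which also hold enzymes of fatty acid breakdown. Cat did not pass the test, but of 14 peroxisomal matrix enzymes and transporters tested 7 were lower and 2 higher, with a median log2 fold change of -0.30. Scp2, a thiolase and lipid carrier, fell from 94.8, 96.6 and 96.3 FPKM to 53.4, 57.3 and 62.3 FPKM (-0.73, SE 0.0784, adjusted p = 0.00156). Ehhadh, the bifunctional enzyme of peroxisomal beta-oxidation, was at 34.8% of Ctrl (-1.24, adjusted p = 0.00335), Phyh, which begins the breakdown of phytanic acid, at 60.7% (-0.72, adjusted p = 0.00212) and Ephx2, an epoxide hydrolase, at 61.6% (-0.69, adjusted p = 0.00174). Decr2 (0.42, adjusted p = 0.0153) and Ddo (0.39, adjusted p = 0.0258) were the genes that rose, and they lost the call on leaving out any of 2 and of 4 hearts (adjusted p up to 0.0550 and 0.0761). By gene bounds, Scp2 overlaps Podn on the same strand over 52607 bases.

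Of 15 genes of peroxisomal import and biogenesis, 1 was higher and 3 lower, with a median log2 fold change of -0.18. Pex14, a docking protein of the import machinery, rose from 2.82, 2.94 and 2.39 FPKM to 5.27, 4.21 and 3.95 FPKM (0.56, adjusted p = 0.0109). Pex6 (-0.39), Pex19 (-0.33) and Pex13 (-0.30) fell, with adjusted p of 0.0168, 0.0216 and 0.0281. These 3 calls were lost on leaving out any of 2, 3 and 5 hearts (adjusted p up to 0.0588, 0.0690 and 0.0966) and also when values were scaled without mtDNA-encoded genes (0.0602, 0.0560 and 0.0583).

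Among 14 enzymes that produce superoxide or hydrogen peroxide, 3 were higher and 3 lower, with a median log2 fold change of -0.17. The monoamine oxidases of the outer mitochondrial membrane, which release hydrogen peroxide as they break down amines, went in opposite directions. Maoa rose from 1.69, 1.30 and 1.08 FPKM to 18.4, 7.08 and 17.4 FPKM (log2 fold change 2.60, SE 0.327, adjusted p = 0.00244), with means 10.5-fold apart. Maob fell from 22.8, 22.0 and 23.5 FPKM to 8.79, 7.89 and 11.2 FPKM (-1.22, SE 0.122, adjusted p = 0.00133). Hence Maob was above Maoa in every Ctrl heart, by FPKM per gene length, while in cKO it was below Maoa in replicates 1 and 3 and above it in replicate 2. Ero1l, the oxidase of the endoplasmic reticulum, rose from 2.96, 2.79 and 3.08 FPKM to 8.18, 8.35 and 8.07 FPKM (1.22, SE 0.0668, adjusted p = 0.000184), and Shc1 rose less (0.38, adjusted p = 0.0160). Xdh, xanthine dehydrogenase, fell from 17.0, 17.7 and 19.6 FPKM to 10.9, 8.19 and 12.6 FPKM (-0.74, adjusted p = 0.0102), and Cybb, the catalytic subunit of the phagocyte NADPH oxidase, fell by 0.38 (adjusted p = 0.0392). The calls of Shc1 and Cybb were lost on leaving out any of 2 and of 4 hearts (adjusted p up to 0.0566 and 0.119).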

How the data were processed

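RNA of 6 hearts, 3 Ctrl and 3 cKO, was analysed, with groups and replicate numbers from the sample titles and columns matched by name. The authors prepared poly-A selected paired-end libraries, aligned reads and counted them per gene; the submitters' processing notes name HISAT2 2.0.5, featureCounts 1.5.0-p3 and DESeq2 1.16.1. The deposited values are FPKM per gene, computed by the authors from read counts and gene length, and the deposited gene length is an other, gene-level value. The notes name mm9, but of 54409 gene IDs shared with GENCODE M21 every one had the same chromosome and 53499 the same start and end, so coordinates are those of the table and correspond to GRCm38. FPKM times gene length gave whole reads for 100% of values (tolerance 0.01 of a read).

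Genes averaging 0.5 FPKM or more over the 6 hearts were fitted with limma 3.58.1 in R 4.3.3 on log2(FPKM + 1), without covariates as in the design of the study (lmFit, eBayes with an intensity trend, two-sided), with Benjamini-Hochberg adjustment and a threshold of 0.05. Because of the constant of 1, fold changes of low genes are understated. Errors written ± are SD over 3 hearts. The fit was tested on simulated data. Members, lists and tests were chosen with earlier results of these data known. Named genes are the 10 members, up to 4 called genes with the largest change in each list, and fixed partners of the members. Sesn1, Txnrd3, Nadk2, Pgls, Nadk, Selenof, Selenok, Decr2, Ddo, Shc1 and Cybb were named after their values were seen, to complete small counts. Idh1, Gclc, Gclm and Sephs2, which did not pass, and the markers Myh6 and Ryr2 were also named after their values were seen. Some list genes are not reported here by name, though they remain in the counts. Where a symbol stands on several rows the one with the highest mean was used. Levels per transcript length used the first principal transcript of GENCODE M21, the longest where several rank alike. Intervals cover the spread between hearts, and nothing states that the hearts were processed on the same day. Alternatives were another pseudocount (0.1), no filter or a minimum of 1 FPKM, median-of-ratios scaling, scaling without mtDNA-encoded genes, eBayes without trend, voom on recovered reads, a replicate block, each heart left out and, added after the data were seen, leaving out the 2 hearts highest in Myl7 and summing Gpx4 with Gpx4-ps2.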

Additional observations from a re-analysis of the deposited data

How the results depend on the processing

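Sod2 and Prdx5 were called lower, and no other member was called, under a pseudocount of 0.1, both other filters, both other scalings, eBayes without trend, voom on the recovered reads and the replicate block. The number of members called lower was 1 to 2 when single hearts were left out, and 1 without the 2 hearts highest in Myl7; the number called higher was 0 throughout. With single hearts left out, 1396 to 1977 genes were higher and 1423 to 2011 lower in all, and without the 2 hearts highest in Myl7 995 and 1019, with 13 list genes higher and 10 lower; fewer samples enter these fits.

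The deviations of equally numbered hearts from their group means correlated at -0.06, 0.17 and -0.01, and those of the other pairs at -0.14 to 0.16. With 3 hearts per group this cannot show whether replicate numbers mark littermates or a shared batch. A fit with the number as a block called 1874 genes higher and 1982 lower, and the block kept the calls of Prdx5 (adjusted p = 0.0388) and Sod2 (0.0189) but not that of Selenok (0.0605); not every heart correlated best with its own number.

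Among the named list genes, Sesn1, Sesn2, Pgd, Slc25a3, Slc39a14, Eefsec, Pex13, Ddo and Cybb lost their calls without a filter (adjusted p = 0.0501 to 0.105), and Cybb when scaled without mtDNA-encoded genes (0.0530). Signs of members and partners that were not called turned in some settings. Scaling without mtDNA-encoded genes gave log2 fold changes of 0.0037 for Sod1, 0.060 for Cat, 0.083 for Prdx1 and 0.031 for Ccs, and Prdx1 was at 0.018 under both median-of-ratios scaling and voom. Leaving out single hearts gave -0.12 to 0.15 for Sod3, -0.14 to 0.15 for Cat, -0.057 to 0.18 for Gpx1, -0.37 to 0.18 for Gpx3, -0.071 to 0.10 for Prdx1, -0.013 to 0.077 for Prdx4, -0.019 to 0.13 for Prdx6 and -0.17 to 0.027 for Ccs. Without the 2 hearts highest in Myl7, Gpx1 was at -0.0018, Gpx3 at 0.024 and Prdx6 at -0.0014. The cause was not tested. With 3 hearts per group, the intervals of Gpx3 and Cat did not exclude a fall of the size of that of Sod2.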
